A study of Homo sapiens with 2 samples.

Results

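CHD4 occupancy was examined at the 10 genes *FOS*, *FOSB*, *FOSL1*, *FOSL2*, *JUN*, *JUNB*, *JUND*, *ATF3*, *BATF* and *MAFF* in 501Mel, an established human melanoma cell line. The genes were taken by name, and a CHD4 peak was assigned to a gene when at least 1 bp of it overlapped the gene record of GENCODE release 44 mapped to GRCh37, or the 10000 bp before its start. By this rule the genes held 29 of the 60126 peaks of the deposited list. The series comprised 1 library of CHD4 chromatin immunoprecipitation (ChIP) and 1 library of input chromatin, both from 501Mel cells grown in RPMI medium with foetal calf serum, with no treatment named, and fixed with 0.4% paraformaldehyde. Both libraries came from the same cell line, so every value describes that line. There was no replicate and no test between conditions was possible. The peak list holds no read counts, so the reads behind each peak are not known, and the read totals that the study gives for its libraries were not used here.

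CHD4 is the ATPase of the NuRD chromatin remodelling and deacetylase complex. AP-1 is the family of dimeric transcription factors that pair through a leucine zipper and contact DNA through the basic region beside it (bZIP). Fos proteins need a partner, most often a Jun protein, whereas Jun proteins can also pair with each other, and ATF, BATF and Maf proteins widen the choice of partners and sites. Several of these genes are immediate-early genes, which are transcribed within minutes of a growth factor or stress signal, and in melanoma AP-1 activity is known for its part in the invasive state. A ChIP peak gives the presence of CHD4 or of a complex containing it, not the expression of the gene beside it.

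All 10 genes had at least 1 CHD4 peak. Among the 20163 protein-coding genes of the annotation 63.2% had a peak in the same kind of window (95% interval by Wilson's method, 62.5% to 63.8%, for counting error alone). Longer windows can hold more peaks, and the windows of the 10 genes ran from 11830 to 65444 bp. Among the 12897 protein-coding genes with windows in that range the share was 59.1%. The number of peaks per gene was 4 for *FOSB*, *JUNB*, *JUND* and *MAFF*, 3 for *FOSL1*, *FOSL2* and *ATF3*, 2 for *FOS*, and 1 for *JUN* and *BATF*. At least 3 peaks were thus found at 7 of the 10 genes, against 18.3% of the genes with windows as long, and at least 4 peaks at 4 of them, against 9.67%. The 10 windows carried 11.6 peaks per 100 kb, compared with 4.31 over the genes with windows as long. Those genes were matched only to the range of window lengths. Their median window was 26345 bp against 17864.5 bp for the 10 genes, so the densities are not at like length. The counts and densities are descriptions, since genes of 1 library are not replicates and the list was chosen by name.

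**Figure D1:**
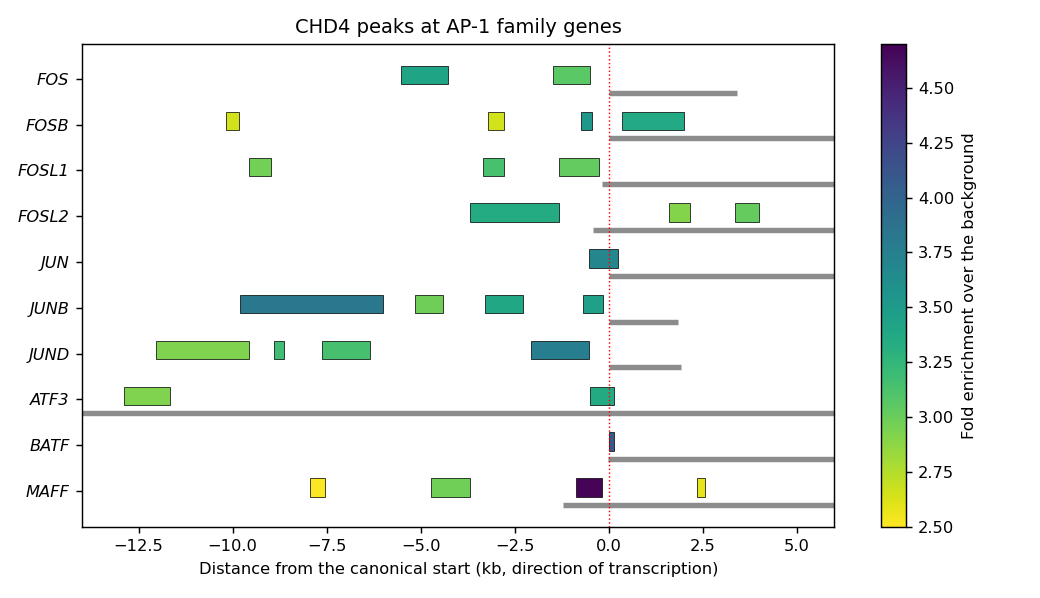
CHD4 peaks (boxes, coloured by fold enrichment over the background of the call) at the 10 genes, by distance from the canonical start in kb; grey lines are the gene records and the dotted line is the start. Boxes lie mostly to the left of the start, and only *JUN* and *ATF3* have a box across it; an *ATF3* peak that begins 42207 bp before the canonical start lies outside the plot.

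The peaks of these genes lay mostly before the genes and not on them. Of the 29 peaks, 19 lay wholly before the gene record and 10 touched it. *JUNB* and *JUND* gave 4 each of these 19, and 10000 bp of their windows of 11830 and 11929 bp lie before the gene. The share of peaks before the record was not computed for other genes. *FOS*, *FOSL1*, *JUNB* and *JUND* had peaks only before the record, which is 4 of 10 genes. Of the 12897 protein-coding genes with windows as long, 2069 (16.0%) did so, while 7616 had a peak at all. Among the lists compared below, 10 of 30 immediate-early genes and 8 of 40 other bZIP genes did so. The records of the 4 genes are short, from 1830 bp (*JUNB*) to 8525 bp (*FOSL1*), so most of each window lies before the gene. Within 1000 bp of the start of the canonical transcript, 9 of the 10 genes had a peak, all but *FOSL2*, against 35.7% of the genes with windows as long. The start itself lay under a peak only at *JUN* and *ATF3*. Of the protein-coding genes with windows as long, 13.2% had their start under a peak. The share was 36.8% of the 4608 with a promoter peak, that is, a peak in the 1000 bp on either side. At the remaining 8 genes the nearest peak edge lay 2 bp (*BATF*), 166 bp (*JUNB*), 167 bp (*MAFF*), 248 bp (*FOSL1*), 363 bp (*FOSB*), 490 bp (*FOS*), 534 bp (*JUND*) and 1333 bp (*FOSL2*) from the start. A point 500 bp before the start was under a peak at 6 of the 10 genes, and a point 100 bp before it at 2. Over all protein-coding genes the corresponding shares were 19.4% and 12.7%, so a fall toward the start was also present across the genome. Past the start the share over all protein-coding genes was 12.9% at 100 bp and 8.43% at 300 bp, where 3 and 0 of the 10 genes were covered.

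**Figure D2:**
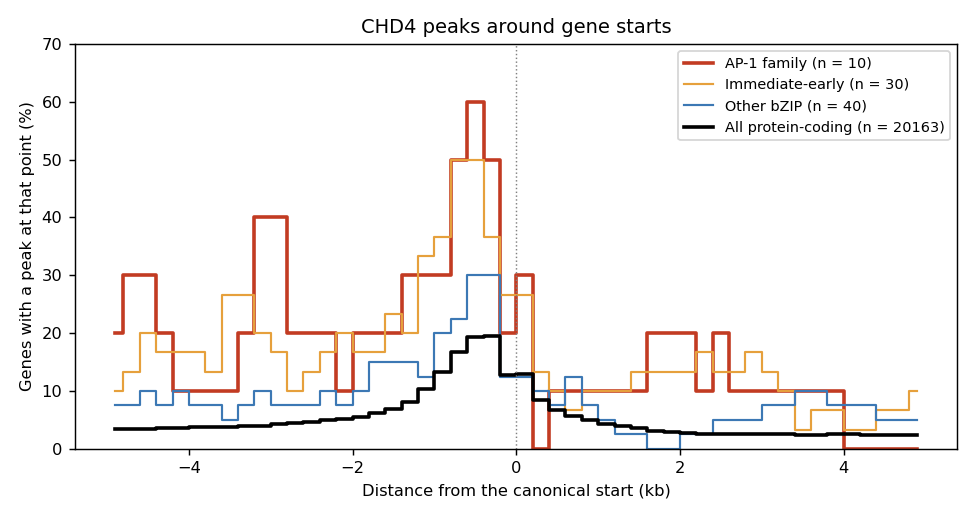
Percentage of genes with a CHD4 peak at each point, in steps of 200 bp from 5000 bp before to 5000 bp after the canonical start, for the 10 AP-1 family genes, 30 immediate-early genes, 40 other bZIP genes and all 20163 protein-coding genes. All 4 curves are higher at 500 bp before the start than at 500 bp after it, and the AP-1 family curve reaches 6 of 10 genes at 500 bp before the start.

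In strength the peaks were ordinary for this list. The authors' peak caller gave each peak a fold enrichment over its background. This value ranged from 2.51 to 4.68 at the 29 peaks, with a median of 3.15, compared with a median of 3.09 over all peaks. A fold enrichment above the median of all peaks was found for 16 of the 29 peaks. Their −log10 q, the caller's measure of confidence, had a median of 2.26 against 1.97 for the list, and only 1 of them, at *MAFF*, reached 5. Of the genes with windows as long, 4.34% had a peak reaching 5. A peak with a −log10 q of at least 2 was present at 9 of the 10 genes, all but *FOSL1*, against 42.6% of the genes with windows as long. Both shares are of all 12897 such genes, of which 7616 had any peak. Of these, 5489 had a peak reaching 2 and 560 a peak reaching 5. The 10 genes also had more peaks each, with a median of 3 against 1 for the genes with windows as long. Peak lengths ran from 151 to 3796 bp with a median of 710 bp, compared with 613 bp over the list. The sequence under the peaks had a median GC content of 55.4%, compared with 43.8% for all peaks. The 29 peaks were taken for lying at or before genes, and peaks in like places elsewhere were not compared. Within 1000 bp of the canonical start, whether under a peak or not, the median GC content was 64.4% at the 10 genes and 55.9% over protein-coding genes.

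**Figure D3:**
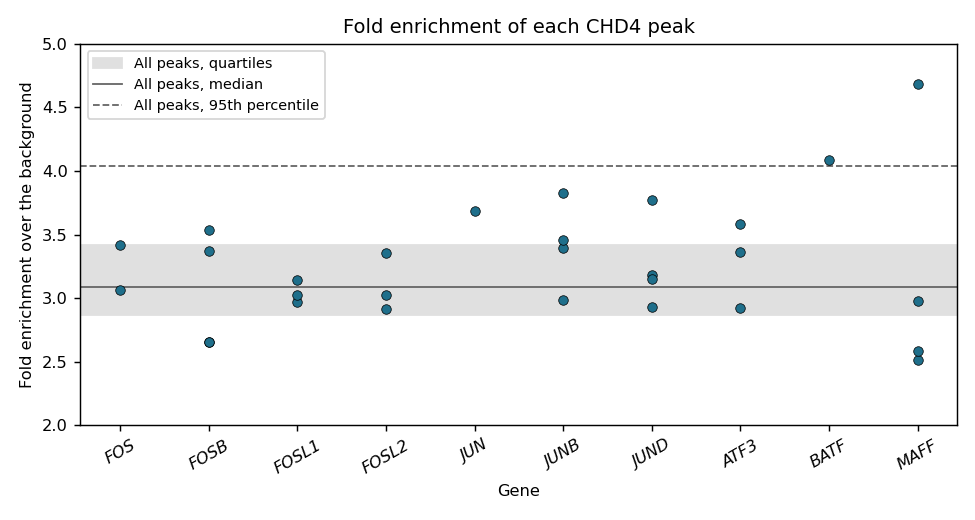
Fold enrichment over the background for each of the 29 peaks (points), by gene; the grey band and solid line are the quartiles and the median of all 60126 peaks, and the dashed line is their 95th percentile. The strongest peak of *MAFF*, at 4.68, and the only peak of *BATF*, at 4.08, stand above the dashed line.

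Among the Fos genes, *FOS* (ENSG00000170345, chromosome 14, 75745529 to 75748933, plus strand) encodes the founding partner of Jun. It had peaks on neither its 4 exons nor its introns. The stronger of its peaks, from 75740020 to 75741258, ended 4273 bp before the canonical start, with a fold enrichment of 3.42 (−log10 q 2.46). The nearer, from 75744040 to 75745041, ended 490 bp before the start, with a fold enrichment of 3.07 (−log10 q 1.80). The stretch between the nearer peak and the start holds a CArG box, the site of serum response factor through which *FOS* is known to be induced, from 314 to 305 bp before the start. It is shown because the peak stops before it, and the capitals mark the CArG box.
FOS, chr14:75745181-75745480 of GRCh37, plus strand, not under a peak: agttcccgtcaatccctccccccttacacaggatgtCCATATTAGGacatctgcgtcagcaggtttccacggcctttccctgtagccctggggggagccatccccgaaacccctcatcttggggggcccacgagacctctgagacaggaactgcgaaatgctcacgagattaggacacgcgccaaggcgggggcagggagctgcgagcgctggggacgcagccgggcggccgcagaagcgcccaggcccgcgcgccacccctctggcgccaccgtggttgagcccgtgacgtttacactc

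*FOSB* (ENSG00000125740, chromosome 19, 45971253 to 45978437, plus strand) encodes a close relative of Fos that is also known as an immediate-early protein. It had a peak on either side of its start. The peak before the start, from 45970519 to 45970821, had a fold enrichment of 3.53 (−log10 q 2.63). The peak after it, from 45971617 to 45973259, covered 354 bp of exon 1, of which 126 bp are coding, and 1289 bp of intron 1, with a fold enrichment of 3.37 (−log10 q 2.92). The other peaks, which began 3223 and 10179 bp before the start, had a fold enrichment of 2.65 each, and only 7.81% and 7.86% of all peaks had a lower one. Every *FOSB* peak also overlapped the record of *ERCC1*. The gap between the near peaks holds a CArG box and a cyclic AMP response element (CRE, TGACGTCA, the same on both strands), both in capitals, and neither was under a peak.
FOSB, chr19:45970909-45971008 of GRCh37, plus strand, not under a peak: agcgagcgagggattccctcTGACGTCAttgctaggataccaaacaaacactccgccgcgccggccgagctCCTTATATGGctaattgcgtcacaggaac

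*FOSL1* (ENSG00000175592, chromosome 11, 65659520 to 65668044, minus strand) encodes Fra-1, known in melanoma for its link to the invasive state. Its 3 peaks all lay before the gene. They had fold enrichments of 2.97, 3.14 and 3.03 from the farthest to the nearest, and −log10 q values of 1.58, 1.996 and 1.70, all under 2. The nearest, from 65668107 to 65669189, ended 248 bp before the canonical start. Among the 10 genes the strongest peak was lowest at *FOSL1*. *FOSL2* (ENSG00000075426, chromosome 2, 28615315 to 28640184, plus strand) encodes Fra-2. Its strongest peak, from 28612043 to 28614392, lay before the gene on the record of the antisense transcript *FOSL2-AS1*, with a fold enrichment of 3.35 (−log10 q 2.73). The remaining peaks lay in intron 1, 563 bp and 620 bp long, with fold enrichments of 2.91 and 3.02. The shorter also overlapped the record of *FOSL2-AS1*, and the longer that of ENSG00000270640.

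Among the Jun genes, *JUN* (ENSG00000177606, chromosome 1, 59242517 to 59249720, minus strand) encodes the central partner of AP-1 dimers. Its only peak, from 59249483 to 59250255, crossed the start, from 536 bp before it to 236 bp after it. It covered 237 bp of the 5′ untranslated part of the single exon and had a fold enrichment of 3.68 (−log10 q 2.91). Of all peaks 87.1% had a lower fold enrichment, and of the peaks within 25% of its length 90.5%. This peak also overlapped the records of the long noncoding genes *LINC01135* and ENSG00000290013. The *JUN* promoter is known for an AP-1-like element, TGACATCA, through which Jun acts on its own gene. The exact letters were found once within 1000 bp of the start, from 67 to 60 bp before it and under the peak. On either strand these letters occur within 1000 bp of the start in 6.72% of protein-coding genes, and under 4.62% of all peaks. The sequence is shown because this stretch before the start lay under the peak, and the capitals mark the element.
JUN, chr1:59249721-59250020 of GRCh37, minus strand, wholly under the peak: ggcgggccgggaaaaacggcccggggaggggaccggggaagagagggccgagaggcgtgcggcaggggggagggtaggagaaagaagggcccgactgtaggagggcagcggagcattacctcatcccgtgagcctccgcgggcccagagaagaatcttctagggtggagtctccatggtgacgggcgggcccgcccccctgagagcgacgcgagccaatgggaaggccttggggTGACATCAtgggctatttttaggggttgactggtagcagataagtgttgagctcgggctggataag

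*JUNB* (ENSG00000171223, chromosome 19, 12902300 to 12904129, plus strand) encodes a Jun protein known to restrain Jun in some settings. It is a single-exon gene and no peak touched it. The 4 peaks before it covered 51.3% of its window, and 99.9% of the genes with windows as long had a lower share. Its window is the shortest in that range, 11830 bp against a median of 26345 bp, and a short window is filled by fewer bp. The share was not compared among windows near its own length. The peak next to the start, from 12901624 to 12902134, ended 166 bp before it and had a fold enrichment of 3.46 (−log10 q 2.53). The next began 3293 bp before the start, with a fold enrichment of 3.39, and the third began 5161 bp before it, with 2.98. The farthest, from 12892492 to 12896287, was 3796 bp long and the strongest, with a fold enrichment of 3.83 (−log10 q 3.46). All 4 lay on the record of the neighbouring gene *HOOK2*, which encodes a linker protein of microtubules, although the canonical start nearest to each was that of *JUNB*.

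The farthest *JUNB* peak held 4 of the 6 exact AP-1 matches (TGAGTCA or TGACTCA, each the reverse complement of the other) found under the 29 peaks. Of all peaks 0.185% held at least 4, and of the peaks of 3000 bp or more 3.07%. The matches lie from 8429 to 8000 bp before the start, and the sequences around them are shown with the matches in capitals.
JUNB, first run, chr19:12893854-12893988 of GRCh37, plus strand: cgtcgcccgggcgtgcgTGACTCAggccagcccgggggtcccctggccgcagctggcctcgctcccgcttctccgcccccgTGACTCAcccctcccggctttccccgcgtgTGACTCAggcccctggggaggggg
JUNB, next run, chr19:12894277-12894317 of GRCh37, plus strand: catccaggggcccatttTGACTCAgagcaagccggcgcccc

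*JUND* (ENSG00000130522, chromosome 19, 18390504 to 18392432, minus strand) encodes the Jun protein that is widely present in resting cells. It too is a single-exon gene with 4 peaks before it and none on it. Of its window 29.5% lay under peaks, more than in 99.2% of the genes with windows as long. At 11929 bp its window is also near the short end of that range. The strongest peak, from 18392966 to 18394503, ended 534 bp before the start, with a fold enrichment of 3.77 (−log10 q 3.61). It overlapped the record of the microRNA gene *MIR3188*. The other peaks had fold enrichments of 3.15, 3.18 and 2.93 with growing distance. An exact CRE lies 200 to 193 bp before the start, in the stretch that the nearest peak left open, and an exact AP-1 match lies under the farthest peak, 11998 to 11992 bp before the start. Both are shown, with the matches in capitals.
JUND near its start, chr19:18392599-18392658 of GRCh37, minus strand, not under a peak: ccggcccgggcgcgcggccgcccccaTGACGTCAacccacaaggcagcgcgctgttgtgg
JUND farthest peak, chr19:18404407-18404447 of GRCh37, minus strand: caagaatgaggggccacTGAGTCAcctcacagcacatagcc

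**Figure D4:**
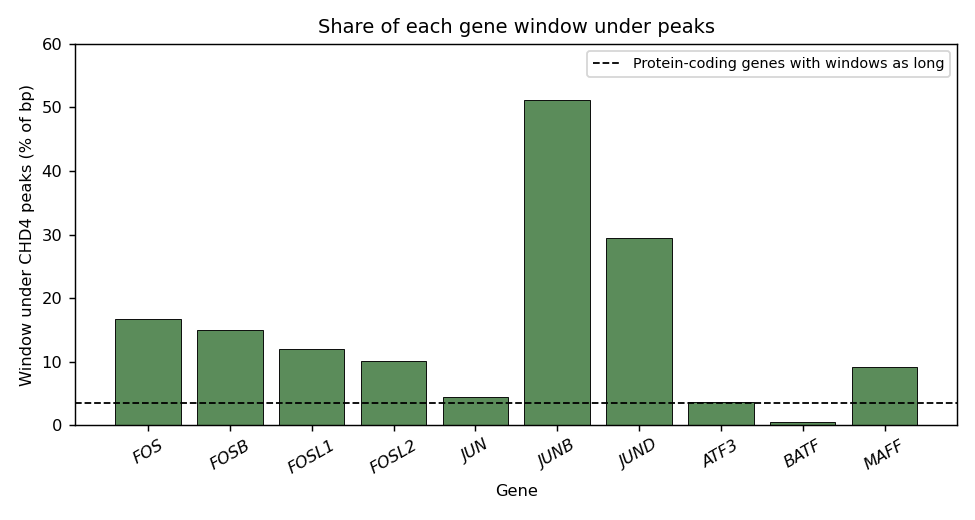
Share of each gene window, in percent of its bp, that lay under CHD4 peaks (bars), with the share over all windows of the 12897 protein-coding genes with windows as long (dashed line, 3.52%). *JUNB* at 51.3% and *JUND* at 29.5% are highest and *BATF* at 0.437% is lowest. The windows of *JUNB* and *JUND* are 11830 and 11929 bp, against a median of 26345 bp for the genes of the dashed line.

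*ATF3* (ENSG00000162772, chromosome 1, 212738676 to 212794119, plus strand) encodes a stress-induced bZIP protein that can repress as well as activate. The gene has an early start, at the start of its record, and a later canonical start at 212782103, and each had a peak nearby. The peak at the later start, from 212781610 to 212782255, ran from 493 bp before to 152 bp after it and covered 153 bp of the untranslated part of exon 1. Its fold enrichment was 3.36 and its −log10 q 2.26. The peak near the early start, from 212739896 to 212740403, began 1220 bp after it and was the strongest of the gene, with a fold enrichment of 3.58 (−log10 q 2.74). A peak between these starts, from 212769211 to 212770425, had a fold enrichment of 2.92 (−log10 q 1.49), and held the last of the AP-1 matches.
ATF3 middle peak, chr1:212769838-212769878 of GRCh37, plus strand: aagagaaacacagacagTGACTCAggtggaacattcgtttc

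*BATF* (ENSG00000156127, chromosome 14, 75988798 to 76013336, plus strand) encodes a partner of Jun best known from lymphocytes. Its only peak, from 75988814 to 75988964, lay within the untranslated part of exon 1, from 2 to 152 bp after the start. It was 151 bp long, the shortest length in the list, which 1837 peaks share. Its fold enrichment of 4.08 exceeded that of 95.6% of all peaks and of 88.0% of the peaks within 25% of its length, and its −log10 q was 3.77. *BATF* also differed from the others in its promoter. The ratio of observed to expected CpG within 1000 bp of the start was 0.212, above that of only 11.7% of protein-coding genes, whereas at the other 9 genes it ran from 0.715 (*FOSB*) to 1.01 (*FOSL2*). Over protein-coding genes the median was 0.635. In the 100 kb on either side of the *BATF* window the list held 1 peak, compared with 2 beside *FOSL2* and from 8 (*JUN*) to 37 (*JUND*) beside the other genes.

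*MAFF* (ENSG00000185022, chromosome 22, 38596774 to 38612514, plus strand) encodes a small Maf protein, which lacks an activation domain of its own and works through its partners. It had the strongest peak of the 10 genes, from 38597125 to 38597834, with a fold enrichment of 4.68 (−log10 q 7.39). It exceeded 99.0% of all peaks and 99.4% of the peaks within 25% of its length. Of the 12735 protein-coding genes with a peak in their window, 95.8% had a lower maximum there. The peak lay after the start of the gene record and ended 167 bp before the canonical start at 38598001. An exact CRE followed 54 to 47 bp before that start and was not under the peak. The remaining *MAFF* peaks were among the weakest of the list or near its middle, with fold enrichments of 2.51, 2.98 and 2.58, and all 4 also lay on the record of *PLA2G6*, which encodes a phospholipase. The central 300 bp of the strongest peak are shown with their 7 CpG in capitals, and no match to the motifs searched was found under that peak.
MAFF strongest peak, chr22:38597330-38597629 of GRCh37, plus strand: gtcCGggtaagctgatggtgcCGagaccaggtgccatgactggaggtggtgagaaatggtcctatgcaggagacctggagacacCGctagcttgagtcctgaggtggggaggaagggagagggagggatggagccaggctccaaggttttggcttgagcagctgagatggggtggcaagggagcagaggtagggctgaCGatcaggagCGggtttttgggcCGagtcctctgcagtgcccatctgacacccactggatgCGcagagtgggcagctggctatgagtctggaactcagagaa

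Gene assignments were not exclusive. The canonical protein-coding start nearest to each of the 29 peaks was that of the listed gene, but 14 of the peaks also lay in the window of another protein-coding gene. These were 4 peaks of *FOSB* with *ERCC1*, 4 of *JUNB* with *HOOK2*, 4 of *MAFF* with *PLA2G6*, 1 of *FOSL1* with *DRAP1* and 1 of *JUND* with *IQCN*. A peak list does not show which gene such a peak acts on, if any. Most of the genes, with many peaks or few, lay in regions rich in peaks. The 100 kb on either side of the windows held 18.5 peaks per 100 kb at *JUND*, 13.5 at *FOSB*, 12.5 at *JUNB* and 10.5 at *MAFF*. Chromosome 19 as a whole had 4.10 and chromosome 22 had 2.67. Within these 4 windows the figures were 33.5, 23.3, 33.8 and 15.5 peaks per 100 kb. The flanks also exceeded the chromosome at *FOS* (5.5 against 1.03), *FOSL1* (7.0 against 2.14), *ATF3* (4.5 against 2.78) and *JUN* (4.0 against 2.78). They fell below it at *FOSL2* (1.0 against 2.25) and *BATF* (0.5 against 1.03).

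An exact match to the motif through which AP-1 itself binds lay under 3 of the 29 peaks (10.3%), those of *JUNB*, *JUND* and *ATF3* shown above, compared with 17.1% of all peaks. Per 100 kb of peak sequence there were 21.4 matches at the 10 genes and 22.9 over the list. The first of these values rests on the farthest *JUNB* peak. Without it, the other 28 peaks held 2 matches, or 8.26 per 100 kb. An M-box (TCATGTG on either strand), a site of the melanocyte factor MITF, lay under 6 of the 29 peaks, compared with 17.1% of all peaks. No exact CRE, CArG box or match to the CTCF consensus lay under any of them, compared with 0.898%, 5.39% and 1.52% of all peaks. Within 1000 bp of their starts, the 9 genes with a peak there held 3 CRE matches (*FOSB*, *JUND*, *MAFF*) and 2 CArG boxes (*FOS*, *FOSB*), and none was under a peak. Over all protein-coding genes with such a promoter peak, 42.0% of 426 CRE matches and 43.6% of 589 CArG boxes were under a peak. The same 9 genes also held 1 TGACATCA element (*JUN*) and 1 M-box (*JUNB*), both under a peak, and 1 AP-1 match (*FOSL1*), which was not. For these motifs the shares under a peak over all such genes were 45.4%, 43.5% and 43.3%. Within 1000 bp of the start, a CRE occurs in 4.14% and a CArG box in 8.35% of protein-coding genes. Exact AP-1 matches also lay across the canonical start of *FOSL1* and 4 to 10 bp after that of *FOSL2*, neither under a peak, and 20.2% of protein-coding genes have such a match within 1000 bp of the start. A match is a description of the letters and not a site in use.

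Other bZIP genes and other immediate-early genes give a scale for these values. Of 40 other bZIP genes, 35 had a peak, 22 had one within 1000 bp of the start and 5 had their start under one. At least 3 peaks were found at 17 of these 40 genes and at least 4 at 12. They had a median of 2 peaks and 4.55 peaks per 100 kb of window. This density is not at like window length. The windows of the other bZIP genes ran up to 536572 bp (*CREB5*), with a median of 24841.5 bp against 17864.5 bp for the AP-1 family genes. The strongest were a peak before *NFE2L1*, with a fold enrichment of 5.70, and peaks at *BACH2*, with 4.79, and *NFE2L2*, with 4.77, which encode Cap'n'collar and BACH proteins that pair with small Maf proteins. Of 30 immediate-early genes, 27 had a peak, 20 had one within 1000 bp of the start and 8 had their start under one. At least 3 peaks were found at 12 of these 30 genes and at least 4 at 7, against 7 and 4 of the 10 AP-1 family genes. The immediate-early genes had a median of 2 peaks and 12.1 peaks per 100 kb of window, against 3 and 11.6 for the AP-1 family genes. The strongest of them were at *SGK1* (4.29), *EGR1* (4.19) and *NR4A3* (4.08), which encode a kinase, a zinc finger factor and an orphan nuclear receptor. The median over genes of the strongest fold enrichment was 3.63 for the AP-1 family genes, 3.59 for the other bZIP genes with a peak, 3.45 for the immediate-early genes with a peak and 3.40 for the genes with a peak and windows as long. The AP-1 family values themselves ran from 3.14 to 4.68, and the differences between the medians were not tested. A gene with more peaks or a longer window can have a higher maximum. The medians were not compared at like number of peaks. All 7 melanocyte genes examined (*MITF*, *SOX10*, *PMEL*, *MLANA*, *TYR*, *DCT* and *TYRP1*) had a peak in their windows, against 63.2% of all protein-coding genes. Their windows ran up to 238881 bp, at *MITF*, which held 43 of their 77 peaks. The list does not measure expression, so these peaks are no check of the cell line.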

How the data were processed

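Chromatin of 501Mel cells gave 1 library after CHD4 ChIP and 1 of input. Reads were mapped by the authors to hg19 with Bowtie (1.0.0 per the labels), uniquely placed reads were retained, and MACS2 2.1.1.20160309 was run in its broad mode. Whether the caller used the input as its control is not given in the sources used here. The deposited list gives, per peak, a fold enrichment (a ratio), a −log10 p (not used), a −log10 q and a score that restates the q value. The lowest −log10 q in the list is 1.00. No read counts are included, so the depth behind a peak cannot be given. The read totals that the study states for both libraries were not used here. Precision is given only for shares, as Wilson 95% intervals.

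Peak positions were converted to counting from 1. All 60123 peaks on chromosomes 1 to 22, X and Y end within the GRCh37 chromosomes. Genes, canonical transcripts and starts came from GENCODE release 44 mapped to GRCh37, and sequences from GRCh37. Windows were the gene record plus 10000 bp before it, promoters 1000 bp on either side of the canonical start, and an overlap of 1 bp counted. No test was made. Overlap counting and motif searches were tested on simulated data. The genes named are the 10 chosen by name, the genes overlapping their peaks, the 3 genes of each comparison list with the highest fold enrichment and 7 melanocyte genes. These genes and lists were chosen with earlier results of these data known. Alternatives covered thresholds, windows, merging, ranking and motif regions. Python 3.11.15, numpy 2.4.6, pandas 2.3.3, scipy 1.17.1 and matplotlib 3.10.9 were used.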

Additional observations from a re-analysis of the deposited data

How the results depend on the processing

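No paired analysis was possible because the ChIP and the input have a single library each and nothing was tested between them. With 1 peak list, only thresholds and definitions could be varied, and the cause of each shift was not tested except where a stricter setting can only leave fewer peaks. The 29 peaks at the 10 genes were reduced to 16 by requiring a −log10 q of 2 or more and to 1 by requiring 5 or more. They became 16 with windows of 2000 bp before the start and 63 with 50000 bp, and 15 when peaks in the window of another protein-coding gene were left out, a setting chosen after seeing the data. Under the stricter threshold 1 of the 10 genes had a peak and 1 had a promoter peak. Of protein-coding genes 63.2% had a peak, and 48.2% and 5.46% under these thresholds, 58.3% and 75.3% with the shorter and longer windows, and 59.1% among genes with windows as long as those of the 10 genes. The other bZIP genes with a peak fell from 35 to 23 and 5 under these thresholds, and the immediate-early genes from 27 to 0 under the stricter. Peaks with an AP-1 match fell from 3 to 1 and 0. AP-1 matches per 100 kb of the peaks fell from 21.4 to 8.26 without the *JUNB* peak that holds most of them, also a setting chosen after seeing the data. The median of the 29 peaks stood above 55.5% of the list by fold enrichment, 62.2% by −log10 q and 56.5% among peaks in the same range of lengths. All 10 genes kept at least 1 peak with both other windows and when the peak centre had to lie inside the window, and 9 did under the milder threshold.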

Other observations

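*FOS* and *BATF* lie on the same arm of chromosome 14, with 239864 bp between them, and *JDP2*, a bZIP gene whose protein pairs with Jun and mostly represses, lies in between. That interval held 3 CHD4 peaks. The strongest, from 75760646 to 75762918 after the end of *FOS*, had a fold enrichment of 4.11 (−log10 q 4.09), which is higher than either peak before *FOS*. It lies outside the window used for *FOS* and was singled out after its values were seen. *JDP2* itself, over 46396 bp, had 0 peaks, and so did the 10000 bp before it. The other bZIP genes without a peak were *ATF2*, *NFIL3*, *CEBPE* and *CEBPA*, named after their values were seen.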
